A study of Mus musculus with 6 samples.

Results

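Mitosis and the G2 phase before it are run by a set of genes that dividing cells switch on together, and 40 of these genes were followed here in myeloid cells of transplanted mice given rapamycin or PBS. The 40 were taken by name, as genes of mitotic entry, the spindle, the kinetochore, the spindle checkpoint and cytokinesis. The rule uses no measured change, but earlier results of these data were known when the genes were chosen. A gene counted as measured where a probe set carried its symbol alone, and the brightest such probe set stood for it. This held for 39 of the 40, among 19938 genes measured in all. Ccnb1 was not analysed here. All 39 passed the brightness threshold of 4.72 on the log2 scale, so no gene was left out for low signal, while 5973 of all genes were.

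The cells were CD11b-positive spleen cells, which the labels call myeloid-derived suppressor cells (MDSCs), immature neutrophil-like and monocyte-like cells that can hold back T cells. They came from lethally irradiated B6D2F1/J mice 10 days after transplantation of T cell-depleted bone marrow of B6 mice. The labels describe grafts both with and without added spleen cells of B6 mice, and do not give the kind for each mouse. The PBS group of 3 mice and the rapamycin group of 3 mice differed in the injections, PBS or 1.5 mg/kg rapamycin into the abdomen on alternate days, and RNA of each mouse was read on 1 array. Rapamycin inhibits mTOR, the kinase that couples nutrients and growth factors to cell growth. The labels give no ages, and the sort was on CD11b alone, so the sample can hold any CD11b-positive cell at any stage. All values are log2 RMA values, with array medians between 5.42 and 5.46.

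Cells enter mitosis when Cdk1, bound to an A- or B-type cyclin, is activated. The kinases Aurora A, Aurora B and Plk1 then build the spindle and attach chromosomes, the checkpoint holds anaphase until every kinetochore is attached, and the anaphase-promoting complex ends mitosis by marking cyclins and securin for destruction. Most of these genes are silenced in resting cells by the DREAM complex and driven in G2 by B-Myb, the MuvB core and FoxM1. Both complexes reach DNA through a short element called CHR, and many of these promoters also carry a CCAAT box, the site of NF-Y. In bone marrow and in a regenerating spleen, myeloid precursors divide and mature neutrophils do not, and these genes are widely read as marks of dividing cells.

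The elements are shown first because most members searched hold CHR and a CCAAT box, and the elements were not used to choose the members. RefSeq's promoter table of GRCm38.p6 (300 bases, from 250 before to 50 after the start) held 33 of the 40 genes. It had no entry for Ccna2, Cdc25c, Foxm1, Aurkb, Tpx2, Dlgap5 and Kif20a, so their promoters were not searched. CHR was searched as the word TTTGAA or the word TTCGAA, and the box of NF-Y as the word CCAAT. The E2F site was searched as any of the words TTCCCGC and TTGGCGC and also TTCGCGC and lastly TTGCCGC. All were searched on both strands. No word of one element contains a word of another. A CHR word lay in 26 of the 33 (78.8%), against 21.7% of 27025 genes in the table, and a CCAAT word in 25 (75.8%), against 41.1%. Both lay in 22 (66.7%), against 8.61%, and an E2F word in 7 (21.2%), against 10.9%. From 60 bases before the start to the end of the window, 23 of 33 members (69.7%) had a CHR word, against 6.79% of all genes. The members without one anywhere in the window were Ccnb1, Nek2, Cenpe, Nuf2, Birc5, Tacc3 and Nusap1, which says only that these letters are not in this window. A CHR word of each described member found to have one is printed below, in 30 bases of the gene's own strand with the word in capitals. The capitals are alike because the word was searched for, and the bases around it were not compared.
Ccnb2: tcagcggcgcggtaTTTGAAtcgcggaccg
Prc1: cgcctctggctcggTTTGAAttccgcgggg
Ect2: agccgtttaccggaTTTGAAacacactcac
Bub1: ggctgcgcggggaaTTCGAAtcgccggcgg
Aurka: ttaaaaggagaaccTTTGAAttgtaacggc
Mki67: aaccgccgttttggTTTGAAtcgggcgggc
Top2a: gggctagataaaggTTCAAAtgaaactagg
Cdk1: tttaccgcggcgagTTTGAAactgctggca
Plk1: ttcccagcgccgcgTTTGAAttcggggagg
Cdc20: taagacagttgggtTTTGAAggagccaatg

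In Top2a the word runs on the opposite strand. These sites lie at chr9:70421535-70421564 (minus strand) for Ccnb2, chr7:80294432-80294461 (plus) for Prc1, chr3:27153977-27154006 (minus) for Ect2, chr2:127831830-127831859 (minus) for Bub1 and chr2:172370523-172370552 (minus) for Aurka. They lie at chr7:135716462-135716491 (minus) for Mki67, chr11:99024197-99024226 (minus) for Top2a, chr10:69352912-69352941 (minus) for Cdk1, chr7:122159451-122159480 (plus) for Plk1 and chr4:118437346-118437375 (minus) for Cdc20. The word begins 15 bases before the start of Cdk1, 18 before that of Cdc20 and 23 before that of Top2a. It begins at base 5 after the start of Ccnb2, 15 of Bub1, 31 of Plk1 and 33 of Aurka. Counted from the start, with bases before it negative, the printed word begins at -5 in Prc1. It lies farther away in Mki67, at -98, and in Ect2, at -114. The last 120 bases before the start are printed for 4 members with CHR and CCAAT words in capitals. Cdk1 shows both elements repeated, Ccnb2 and Aurka show CCAAT boxes in series, and Nek2 has a CCAAT box and no CHR.
Cdk1: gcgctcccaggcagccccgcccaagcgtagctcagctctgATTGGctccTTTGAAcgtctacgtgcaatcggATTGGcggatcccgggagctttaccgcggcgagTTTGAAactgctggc
Ccnb2: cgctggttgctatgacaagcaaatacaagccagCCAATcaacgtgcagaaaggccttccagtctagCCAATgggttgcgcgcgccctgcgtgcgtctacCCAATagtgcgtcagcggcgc
Aurka: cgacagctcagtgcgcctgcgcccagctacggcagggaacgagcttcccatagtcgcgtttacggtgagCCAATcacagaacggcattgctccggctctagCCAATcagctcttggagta
Nek2: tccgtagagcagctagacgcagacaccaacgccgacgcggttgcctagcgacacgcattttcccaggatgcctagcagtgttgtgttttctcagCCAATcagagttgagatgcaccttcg

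These stretches are chr10:69352913-69353032 (minus) for Cdk1, chr9:70421555-70421674 (minus) for Ccnb2, chr2:172370571-172370690 (minus) for Aurka and chr1:191821353-191821472 (plus) for Nek2. The elements are not particular to the members, and further mitotic genes had shares nearer to the members' than replication genes had. Of 58 further mitotic genes with a promoter there, 37 had a CHR word (63.8%) and 14 an E2F word (24.1%). Of 39 genes of DNA replication and the G1/S transition, 8 had a CHR word (20.5%) and 25 an E2F word (64.1%). A CCAAT word lay in 42 of the further mitotic genes (72.4%) and in 22 of the replication genes (56.4%).

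The comparison of rapamycin with PBS asks whether mTOR inhibition after the transplantation went with a change of mitotic genes in these cells. Tpx2 fell, no member rose (0 of 39), and for the other 38 the difference stayed outside the threshold (limma, adjusted p under 0.05). Over all 13965 genes tested, 967 fell, which is 6.92%, and 617 rose, which is 4.42%. The members' share called in either direction therefore lay below the 11.3% called over all genes. At an unadjusted p under 0.05, 3 members were lower (Tpx2, Prc1 and Ccna2) and 5 higher (Cenpe, Foxm1, Aurka, Bub1 and Birc5), against 16.9% of all genes lower and 11.3% higher. Their changes were small: the median log2 change was 0.028 over the members and -0.017 over all genes, and the members ran from -0.30 (Nek2) to 0.22 (Cenpe). For 32 of 39 members (82.1%) the whole 95% interval lay within 0.3 of 0 on the log2 scale, a bound chosen after the values were seen, and this held for 66.0% of all genes. The array groups did not overlap for 10 members (7 higher and 3 lower), against 32% of all genes (12.6% higher and 19.4% lower). In a sample of many cells, fewer dividing cells and less of an RNA per cell cannot be told apart.

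**Figure D1:**
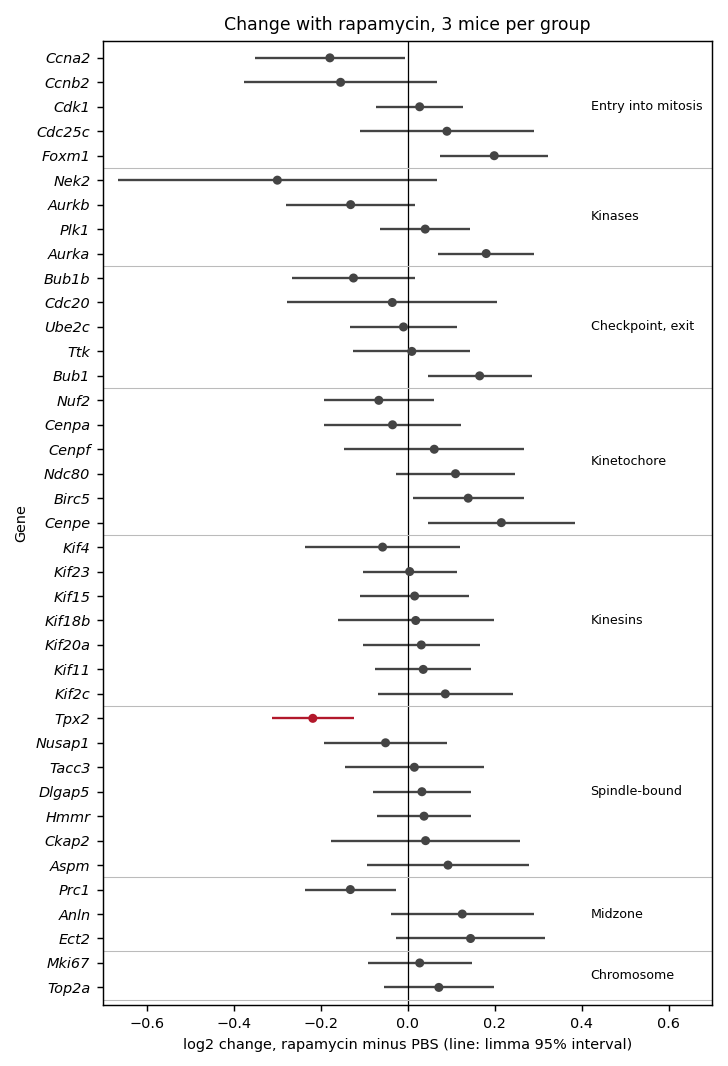
Log2 change of each of the 39 genes, rapamycin minus PBS (points), with limma's 95% interval (lines), grouped by role from top to bottom, for 3 mice per group. Tpx2, in red, is the member that passed the test, and the points run from -0.30 for Nek2 to 0.22 for Cenpe.

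Among the genes of mitotic entry, none of 5 passed the test. Ccna2, cyclin A2, which partners Cdk2 in S phase and Cdk1 in G2, stood at 10.42, 10.37 and 10.48 in the PBS mice and at 10.14, 10.19 and 10.40 with rapamycin. Replicates 1 and 2 of rapamycin lay under all PBS mice and replicate 3 lay among them, for a log2 change of -0.18 ± 0.07 (SE, limma's adjusted p 0.165). Without rapamycin replicate 3 the change was -0.26 and passed (limma's adjusted p 0.0407). Ccnb2, a B-type cyclin that activates Cdk1, stood at 11.08, 11.12 and 11.26 with PBS and at 10.88, 10.91 and 11.20 with rapamycin. The same 2 mice were low and the groups overlapped, for a change of -0.15 ± 0.09. Cdk1 itself, the kinase that starts mitosis, was listed at 8.51 on all 3 PBS arrays and at 8.52, 8.51 and 8.58 with rapamycin. Its change was 0.027, with an interval from -0.073 to 0.13. The values of 4 of these arrays were equal to the last digit given. Values equal to the last digit on at least 2 of the 6 arrays occurred in 5 of 39 members and in 36.8% of all genes tested, and a spread near 0 within a group is therefore not read as a measure of the mice.

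Foxm1, the transcription factor that drives many of the other members in G2, was at 8.13, 8.01 and 8.16 with PBS and 8.32, 8.27 and 8.31 with rapamycin. All 3 rapamycin mice lay above all PBS mice, by 0.20 ± 0.05 (SE), or 1.15-fold. Limma's adjusted p was 0.0550, just outside the threshold. It passed when dimmer genes were left out (limma's adjusted p 0.0427 at the 50th percentile, where 7.13% of all genes were called higher), with array weights (0.0435, with 5.21% called higher) and with medians aligned over the genes tested (0.0343, with 6.27%). It did not pass with no brightness filter, averaged probe sets, quantile normalization repeated or array medians aligned over all probe sets. Foxm1 also missed with an intensity trend, in the unmoderated fit and with the replicate block. With any 1 array left out it missed too (limma's adjusted p 0.0829 to 0.158). Cdc25c, the phosphatase that frees Cdk1 from its inhibitory phosphate, differed by 0.090 ± 0.085, and its highest value, 7.10, was that of rapamycin replicate 3.

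The mitotic kinases moved in both directions and none of 4 passed the test. Aurka, which encodes Aurora A of the centrosome and spindle poles, was at 8.23, 8.17 and 8.21 with PBS and at 8.44, 8.35 and 8.36 with rapamycin. The groups did not overlap, and the change was 0.18 ± 0.05 (SE) with limma's adjusted p of 0.0510. It passed with the stricter brightness filter (0.0407), with a variance model with intensity trend (0.0484, where 4.93% of all genes were called higher), with array weights (0.0379) and with medians aligned over the genes tested (0.0318). It did not pass with no brightness filter, averaged probe sets, quantile normalization repeated or array medians aligned over all probe sets. Aurka also missed in the unmoderated fit, with the replicate block and with any 1 array left out (limma's adjusted p 0.0702 to 0.149 in the last). Aurkb, Aurora B of the chromosome passenger complex, was at 9.49, 9.49 and 9.48 with PBS and at 9.36, 9.23 and 9.46 with rapamycin. All rapamycin mice lay lower, replicate 3 by little, and the change was -0.13 ± 0.06 (limma's adjusted p 0.224). Plk1, the kinase of centrosome maturation and mitotic entry, was at 9.78, 9.73 and 9.76 with PBS and 9.84, 9.77 and 9.77 with rapamycin. Its groups overlapped and its interval ran from -0.063 to 0.14. Nek2, which parts the centrosomes, was at 7.43, 7.47 and 7.43 with PBS and at 7.18, 6.77 and 7.47 with rapamycin. It had the largest spread among the rapamycin mice of any member (SD 0.35, n = 3), and its change of -0.30 ± 0.16 did not pass (limma's adjusted p 0.258).

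Tpx2 was the member called lower. Its protein nucleates microtubules at chromosomes and switches on Aurora A at the spindle. The probe set (10477187) read 9.12, 9.14 and 9.16 in the PBS mice and 8.92, 8.91 and 8.93 in the rapamycin mice. The groups lay apart with little spread in either (SD 0.017 and 0.011, n = 3 each). The change was -0.22 ± 0.04 (SE), or 1.16-fold lower, with limma's adjusted p of 0.0195. The size hardly moved when any 1 array was left out (-0.23 to -0.21). In limma fits on 5 arrays the adjusted p was 0.0457 with PBS replicate 1 left out and 0.0345 with rapamycin replicate 3 left out, where 2.99% and 5.55% of all genes were called lower. It missed the threshold in the other 4 such fits, at 0.0710 (PBS replicate 2 left out), 0.0634 (PBS replicate 3), 0.0639 (rapamycin replicate 1) and 0.0547 (rapamycin replicate 2), where 0.437%, 1.74%, 1.58% and 2.91% of all genes were called lower. Tpx2 was called under each of the 10 settings that kept all arrays. All genes called lower were then 3.87% with no brightness filter, 10.8% at the 50th percentile, 9.61% with quantile normalization repeated and 9.6% with array medians aligned. They were 6.92% where probe sets of 1 gene were averaged, 7.35% with the intensity trend, 7.95% with array weights, 0.408% in the unmoderated fit, 6.61% with the replicate block and 5.06% with medians aligned over the genes tested.

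The other 6 spindle-bound members did not pass. Nusap1, which bundles microtubules near chromosomes, differed by -0.051, and Tacc3, which cross-links kinetochore fibres, by 0.015. Dlgap5, also called HURP, differed by 0.033, and Hmmr, the hyaluronan-mediated motility receptor that also binds spindle poles, by 0.037. Aspm, the spindle pole protein whose loss causes microcephaly, differed by 0.093 ± 0.080 (SE), and Ckap2 by 0.041 ± 0.093. In Aspm and Ckap2 the highest array was rapamycin replicate 3, at 7.74 and 7.08.

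Of 5 genes of the checkpoint and of anaphase exit none passed. Bub1, the checkpoint kinase at unattached kinetochores, was at 7.91, 7.90 and 7.84 with PBS and at 7.998, 8.02 and 8.12 with rapamycin. The rapamycin mice all lay higher, by 0.17 ± 0.05 (SE, limma's adjusted p 0.0812). Bub1b, which encodes BubR1 of the same checkpoint, stood at -0.12 ± 0.06. Cdc20, the activator of the anaphase-promoting complex, was at 7.70, 7.66 and 7.74 with PBS and 7.62, 7.47 and 7.90 with rapamycin. The rapamycin mice lay on both sides of the PBS mice, and the change was -0.035 with an interval from -0.28 to 0.21. Ttk, the kinase Mps1, differed by 0.0094 and Ube2c, the ubiquitin-conjugating enzyme of the complex, by -0.0098.

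At the kinetochore and centromere none of 6 passed. For 3 of them (Cenpe, Ndc80 and Birc5) the rapamycin mice all lay higher, as they did for 12.6% of all genes. The 6 were not tested as a set. Cenpe, the kinesin that carries chromosomes to the metaphase plate, was at 8.77, 8.79 and 8.66 with PBS and 8.89, 8.88 and 9.10 with rapamycin. This was the largest positive change of the members, 0.22 ± 0.07 (SE, limma's adjusted p 0.101), or 1.16-fold. Birc5, or survivin, the passenger complex subunit that docks Aurora B, was at 8.15, 8.03 and 8.16 with PBS and 8.31, 8.22 and 8.21 with rapamycin. Its change was 0.14 ± 0.05 (limma's adjusted p 0.146). The others were the microtubule-binding pair Ndc80 (0.11) and Nuf2 (-0.066), the centromeric histone Cenpa (-0.035) and Cenpf (0.061).

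For all 7 kinesins the groups overlapped and the interval lay within 0.3 of 0. Their changes ran from -0.058 for Kif4, a chromosome-bound motor, to 0.086 for Kif2c, which takes microtubules apart at centromeres. Kif11, the motor that pushes spindle poles apart, differed by 0.036, and Kif15, which can back it up, by 0.016. Kif23 of centralspindlin differed by 0.0045, Kif20a, which brings the passenger complex to the midzone, by 0.031, and Kif18b by 0.018.

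In the midzone group Prc1, which bundles the antiparallel microtubules of the anaphase spindle, was at 8.40, 8.41 and 8.39 with PBS and 8.25, 8.23 and 8.32 with rapamycin. All rapamycin mice lay lower, by 0.13 on the log2 scale (a change of -0.13 ± 0.04, SE, limma's adjusted p 0.101). Ect2, the exchange factor that activates RhoA at the furrow, was at 8.78, 8.78 and 8.77 with PBS and 8.91, 8.78 and 9.07 with rapamycin. Its groups overlapped, and the change was 0.14 ± 0.07. Anln, the furrow scaffold anillin, stood at 0.13 ± 0.07, with its highest value, 9.18, in rapamycin replicate 3.

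Neither of the 2 general marks of dividing cells passed the test. Mki67, the antigen Ki-67 that coats mitotic chromosomes, was at 11.19, 11.18 and 11.19 with PBS and 11.16, 11.19 and 11.30 with rapamycin. The groups overlapped, and the change was 0.028 with an interval from -0.092 to 0.15. Under a repeated quantile normalization it was -0.091. Top2a, the topoisomerase that untangles sister chromosomes, was at 10.14, 10.16 and 10.07 with PBS and 10.14, 10.27 and 10.17 with rapamycin, a change of 0.072 ± 0.054 (SE). Its other probe set (10390700) behaved differently, at 9.16, 8.96 and 8.72 with PBS and 9.41, 9.41 and 9.36 with rapamycin. There all rapamycin mice lay higher, by 0.45 ± 0.10, with limma's adjusted p of 0.0350 among 15252 probe sets, a fit added after the data were seen. The mean of both gave 0.26 (limma's adjusted p 0.0579). No other member had more than 1 probe set of its own.

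**Figure D2:**
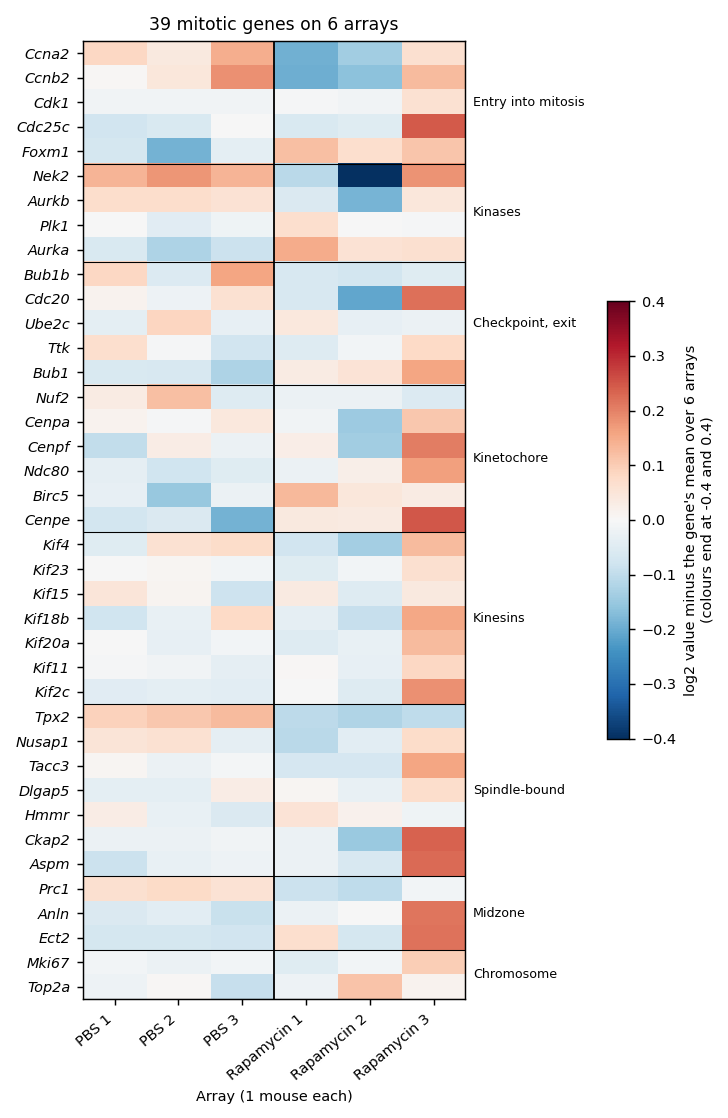
Log2 value of each of the 39 genes on each of the 6 arrays, minus that gene's mean over the arrays (red higher, blue lower, colours ending at -0.4 and 0.4), with genes grouped by role and a line between the PBS and rapamycin arrays. The column of rapamycin replicate 3 is the reddest: 24 of 39 members were highest there.

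Rapamycin replicate 3 was the highest of the 6 arrays for 24 of 39 members (61.5%), against 12.5% of all genes, and the lowest for 1. Rapamycin replicate 2 was the lowest for 13. Replicate 3 lay above both other rapamycin mice for 31 of 39 members (79.5%), against 30.2% of all genes, by a median of 0.15 on the log2 scale. In lists described below it did so for 14 of 19 condensin and cohesin genes (73.7%) and 45 of 67 further mitotic genes (67.2%). The count was 9 of 17 for the anaphase-promoting complex (52.9%) and 14 of 45 for replication and G1/S genes (31.1%). The median SD of the members was 0.092 among rapamycin mice and 0.036 among PBS mice, where it was 0.072 and 0.065 over all genes. The widest gaps were those of Nek2 (0.49), Cdc20 (0.36), Ckap2 (0.32), Ccnb2 (0.31) and Cdc25c (0.30). These 5 were named for their size. Members without such a gap included Tpx2 (0.013), Foxm1 (0.016), Aurka (-0.041), Plk1 (-0.037) and Birc5 (-0.053). Without rapamycin replicate 3 the members' median change was -0.015, with 22 below 0 and 17 above, and the median over all genes was also -0.015. With all arrays the members' median was 0.028, with 13 below and 26 above. Over all genes it was then -0.017, with 7767 below 0 and 6198 above. The fit without rapamycin replicate 3 called 2 members lower (Ccna2 and Tpx2) and 0 higher, beside 5.55% and 4.02% of all genes.

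**Figure D3:**
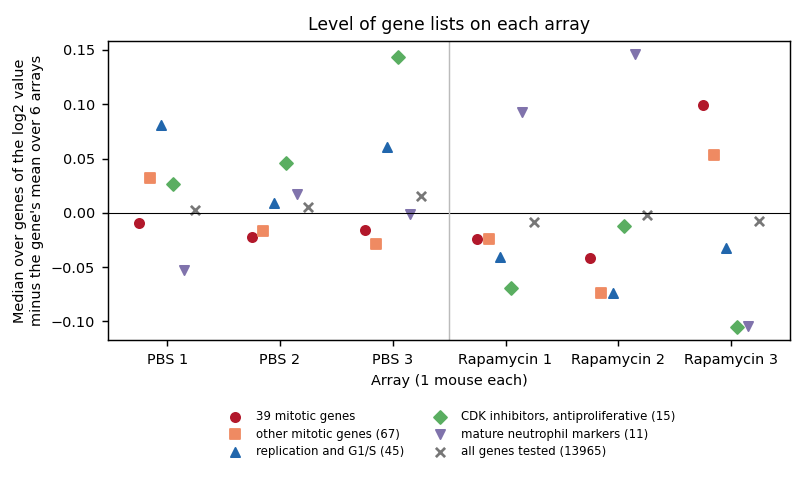
Median over the genes of a list of the log2 value minus the gene's mean over 6 arrays, for each array (1 mouse each). The 39 mitotic genes lie between -0.042 and -0.0095 on 5 arrays and at 0.099 on rapamycin replicate 3.

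Marker lists were read on the same arrays. The 11 measured genes of mature neutrophils, cells that no longer divide, had a median deviation of -0.10 on rapamycin replicate 3, where 7 of 11 were at their lowest and 0 at their highest. Lists of other kinds were about as low or lower on that array. The median deviation was -0.15 for 14 T and cytotoxic lymphocyte genes, -0.10 for 15 genes that restrain division and -0.093 for 13 secondary granule and other neutrophil genes. Among lists above 0 on it were the macrophage genes (0.084) and the erythroid genes (0.053). The mature neutrophil genes had a mean log2 level of 10.22 on replicate 3, against up to 10.53 on the other rapamycin arrays and 10.34 to 10.43 with PBS. That mean leaned on Cd101, at 6.66 with a deviation of -1.05, while 3 of the 11 lay above their own mean on this array. The 14 genes of neutrophil progenitors and primary granules had a mean of 9.63 on that array, the highest of the rapamycin group (from 9.46), and 9.65 to 9.72 with PBS. The 14 erythroid genes above the threshold were at 5.64 on it, the highest of all arrays, against 5.46 to 5.48 with PBS; the erythroid genes Rhag, Kel, Hemgn, Trim10 and Tspan8 lay below the threshold. The 6 stem and progenitor genes above the threshold ran from 6.09 to 6.36 with rapamycin, with 6.25 on replicate 3. Of the mature neutrophil genes 3 rose and 2 fell, with changes over the list from -1.12 (Cd101) to 0.70 (Il1r2). In the erythroid list 1 gene rose (Slc4a1, the band 3 anion exchanger). In the list of progenitors and primary granules 2 genes fell, Gfi1 (-0.34) and the growth factor gene Hgf (-0.99). Their part in the members' values was not tested.

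A list of 13 secondary granule and other neutrophil genes, Itgam (CD11b) among them, passed the threshold as a whole. Its list means were 12.43 to 12.55 with rapamycin and 12.55 to 12.65 with PBS. In it 1 gene fell, Ltb4r1 (-0.42 ± 0.09, SE), which encodes a receptor and not a granule protein. The sort could also carry over other cells. Of 14 T and cytotoxic lymphocyte genes above the threshold 5 fell and 0 rose, with list means of 5.56 to 5.70 with rapamycin and 5.84 to 5.96 with PBS. Those below it were Cd3d, Gzma, Klrd1 and Ncr1. Of 13 B cell genes measured 7 lay below the threshold, Ms4a1, Cd79a and Pax5 among them, and 1 of the other 6 fell. Of 15 macrophage genes 3 rose and 1 fell, of 10 monocyte genes 1 rose and 3 fell, and of 10 dendritic cell genes 1 rose and 1 fell. The list means were 8.97 to 9.04 against 8.58 to 8.99 for macrophages, 8.51 to 8.58 against 8.59 to 8.75 for monocytes and 6.26 to 6.36 against 6.18 to 6.23 for dendritic cells, rapamycin against PBS. Of 4 megakaryocyte genes above the threshold 1 fell, with list means of 5.81 to 5.85 and 5.86 to 5.98. Their part in the members' values was not tested.

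In a list of 67 further measured genes of the mitotic machinery, 2 fell, 1 rose and 64 did not pass, at a median of 0.0038. Cenpm, a centromere subunit, rose by 0.72 ± 0.13 (SE), from 7.50, 7.55 and 7.66 to 8.54, 8.01 and 8.31. This lay outside the members' range. The call held without rapamycin replicate 2 or 3, and not in the 4 other fits on 5 arrays (limma's adjusted p 0.0506 to 0.0841). Cenpn, of the same centromere network, changed by -0.22 ± 0.05, and Trip13, which takes apart checkpoint complexes, by -0.24 ± 0.06. Both were called without rapamycin replicate 3 and in none of the 5 other such fits. In the fit without that array 6 of the 67 fell. Rapamycin replicate 3 was the highest array for 23 of the 67 (34.3%).

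Of 19 condensin and cohesin genes 1 fell, Rad21, the cohesin ring subunit that separase cuts, by -0.19 ± 0.05 (SE), at a list median of -0.021. Smc4 of condensin stood at 0.18 ± 0.06 and Cdca5, or sororin, at -0.16 ± 0.06, neither past the threshold. Without rapamycin replicate 3 the list had 3 lower, and without each other array 0. Of 17 genes of the anaphase-promoting complex 2 fell and 1 rose, at a median of -0.037. The subunits Cdc26 and Anapc4 changed by -0.34 ± 0.06 and -0.34 ± 0.07, and Anapc13 by 0.36 ± 0.06. Of the 6 fits on 5 arrays, Cdc26 and Anapc13 were each called in 3 (not without PBS replicate 1 or 2, or rapamycin replicate 1), and Anapc4 in 1 (the fit without rapamycin replicate 3).

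Of 20 genes of DREAM, MuvB, B-Myb, the E2F family and NF-Y above the threshold 3 fell, 2 rose and 15 did not pass, at a median of -0.0037. Tfdp1, the DP1 partner that E2F factors need to bind DNA, was at 10.47, 10.58 and 10.60 with PBS and 9.93, 9.95 and 10.01 with rapamycin. The groups lay far apart, and the change of -0.59 ± 0.05 (SE, limma's adjusted p 0.00411), or 1.51-fold lower, was called in all 6 fits that left out 1 array. E2f2, an activating E2F of blood precursors, was at 8.78, 8.91 and 8.79 with PBS and 8.46, 8.49 and 8.49 with rapamycin, a change of -0.35 ± 0.05. Nfyb, a subunit of the CCAAT-binding NF-Y, was at 7.90, 7.86 and 7.87 with PBS and 7.58, 7.59 and 7.59 with rapamycin, a change of -0.29 ± 0.04. Both lay lower in every rapamycin mouse, and of the 6 fits on 5 arrays only the one leaving out PBS replicate 2 did not call them (limma's adjusted p 0.0504 for each). Lin37, a MuvB subunit needed for repression by DREAM, rose by 0.37 ± 0.06, from 8.27, 8.32 and 8.41 to 8.71, 8.76 and 8.62. It was not called in the fits leaving out PBS replicate 2 or rapamycin replicate 1. E2f4, the E2F of the DREAM complex, rose by 0.19 ± 0.05, a call kept in the fit without rapamycin replicate 3 and in none of the 5 others. Mybl2, or B-Myb, stood at -0.15 ± 0.08 and did not pass. Lin37, E2f4 and Mybl2 were named after their values were seen.

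DNA replication and the G1/S transition come before mitosis in a dividing cell. Of 45 such genes above the threshold 8 fell, 1 rose and 36 did not pass, at a median of -0.096, with 34 below 0 and 11 above. Lower calls among such genes were known from these data when the list was chosen, so the count is no independent support. Slbp, which binds histone mRNA, changed by -0.34 ± 0.06 (SE), the chromatin assembly subunit Chaf1a by -0.36 ± 0.07 and the primase Prim1 by -0.35 ± 0.07. The count of 8 lower was 4 without rapamycin replicate 3, 1 without rapamycin replicate 1 and 0 without any other array. Among genes that restrain division, 2 of 15 fell, the antiproliferative factors Tob1 (-0.45 ± 0.07) and Btg1 (-0.35 ± 0.08), and 0 rose, at a median of -0.16. Cdkn2d, the CDK inhibitor p19, stood at -0.23 ± 0.06 (limma's adjusted p 0.0520). Of the 6 fits on 5 arrays, Tob1 was called in 3 (not without PBS replicate 2 or 3, or rapamycin replicate 1). Btg1 was called in 2 (the fits without rapamycin replicate 2 or 3). Whether the replication list differs from the mitotic list was not tested.

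**Figure D4:**
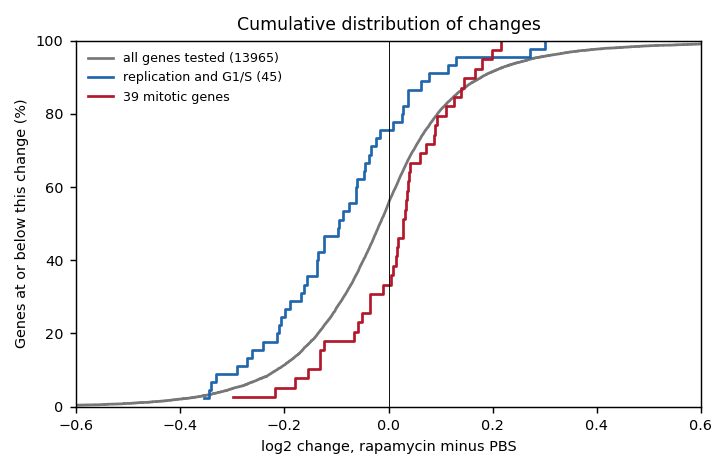
Cumulative share of genes (percent) at or below each log2 change, rapamycin minus PBS, for the 39 mitotic genes, 45 replication and G1/S genes and all 13965 genes tested. The mitotic curve crosses 50% at 0.028, the curve of all genes at -0.017 and the replication curve at -0.096.

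Among the 32 measured members in the promoter table, those with a CHR word had a median log2 change of 0.032 (26 genes, from -0.15 to 0.18) and those without one a median of -0.018 (6 genes, from -0.30 to 0.22). The extremes of the members, Nek2 and Cenpe, are both among the 6. With a CCAAT word the median was 0.027 (24 genes) and without one 0.051 (8 genes). These are descriptions of few genes, Tpx2 not among them, with no test.

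The counts over all genes depended on scaling and on single arrays. Lower genes were 61.05% of the calls, 71.0% with array medians aligned over all probe sets and 44.7% with medians aligned over the genes tested. Tpx2 was lower under each of these scalings, by -0.24 and -0.19 in the same order. The members' split of 13 below and 26 above 0 became 18 and 21 or 12 and 27. The labels call the mice biological replicates, and the labels used here give no array batch, so none was tested.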

How the data were processed

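RNA of 6 mice was read on 1 array each, 3 per group. Per the submitters' processing notes, the authors' deposited log2 values came from RMA in Affymetrix Expression Console; no version is stated there. This method equalises the arrays' distributions, so a shift of most genes one way would be removed. The values ran from 2.71 to 14.2. Arrays have no depth, and their number limits the precision.

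Gene names are those of the platform table that GEO dates to 2016. Of 35556 probe sets, 21789 had 1 symbol, 1621 several and 12146 none listed; 21698 matched RefSeq's GRCm38.p6 gene table by Entrez ID. The brightest probe set stood for each of 19938 genes, and 13965 with a mean at or above the 30th percentile (4.72) were tested.

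The test was limma's (version 3.58.1, run under R 4.3.3: lmFit, eBayes, 2-sided, Benjamini-Hochberg over all genes, adjusted p under 0.05). Standard errors and 95% intervals are limma's moderated ones. Tested on simulated data (13965 genes), the fit recovered 5 of 50 changes of 0.2, 27 of 50 of 0.3, 49 of 50 of 0.6 and 50 of 50 of 1, with 11 false among 142 calls. The real data gave 1584 calls, so these recoveries need not hold for them.

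The members and the 17 lists (327 of 347 entries measured) were chosen with earlier results of these data known. Members described with all 6 values were those called, the 5 lowest and 5 highest changes and 10 fixed genes (Ccnb1 not analysed here). Of each cell cycle list the 3 genes with the smallest p are named, and in the DREAM list Lin37, E2f4 and Mybl2 as well. Further called genes of the replication list are counted and not named. Alternatives are listed in the closing section. Plots used matplotlib 3.10.9 (Python 3.11.15). Promoter words were counted per gene over all its windows in the table.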

Additional observations from a re-analysis of the deposited data

How the results depend on the processing

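Tpx2 stayed lower under every setting run and the count of members lower stayed at 1, except when 1 array was left out, where it ran from 0 to 2. The count of members higher was 0, and 2 with the 50th percentile filter, with array weights or with array medians aligned over the genes tested (added after seeing the data), each time Aurka and Foxm1, and 1 (Aurka) with the intensity trend and robust variance. Leaving out 1 array gave 0 each time. Over all genes, the unmoderated fit called 57 lower and 29 higher, and leaving out 1 array gave 61 to 775 lower and 52 to 561 higher. The members' median ran from -0.015 without rapamycin replicate 3 to 0.059 with medians aligned over the genes tested.

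With the replicate block Tpx2 changed by -0.22 (limma's adjusted p 0.0402), 1 member was lower and 0 higher, and 923 genes were lower and 768 higher; the numbers are not known to pair the mice, since same-numbered mice correlated in their deviations from the group means by 0.26, 0.0100 and 0.046 and not every mouse correlated best with its own number. Small changes turned sign. With array medians aligned, Kif23 was -0.019, Ttk -0.014, Tacc3 -0.0083, Kif15 -0.0077 and Kif18b -0.0052. With quantile normalization repeated, Mki67 was -0.091 and Kif23 -0.024. With array weights Kif23 was -0.0043, and with medians aligned over the genes tested Ube2c was 0.022. Without rapamycin replicate 3, Mki67 was -0.015, Kif23 -0.026, Ttk -0.028, Tacc3 -0.059, Kif18b -0.055, Kif20a -0.025, Ckap2 -0.066, Cenpf -0.027 and Cdc25c -0.0097. Without rapamycin replicate 2, Cdc20 was 0.060, Cenpa 0.029 and Ube2c 0.0043. Without PBS replicate 3, Ttk was -0.027 and Kif15 -0.022, without PBS replicate 1 Kif18b was -0.017, and without PBS replicate 2 Ube2c was 0.031. None of these passed the test. The other ends of the ranges over the 6 fits on 5 arrays were -0.15 for Cdc20, -0.097 for Cenpa, -0.033 for Ube2c, 0.045 for Ttk, 0.053 for Tacc3, 0.045 for Kif15, 0.069 for Kif18b, 0.065 for Kif20a, 0.13 for Ckap2, 0.15 for Cenpf and 0.14 for Cdc25c. The causes were not tested. Fits without an array have fewer samples. With 3 arrays per group, changes near 0.2 were called for some genes (Rad21 and E2f4) and not for others (Foxm1 and Aurka).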
